A study of Mus musculus with 4 samples.

Results

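The 9 genes described here encode transcription factors of GABAergic interneuron development: Dlx1, Dlx2, Dlx5, Dlx6, Lhx6, Sp9, Sox6, Satb1 and Nkx2-1. They were taken by symbol from the deposited tables of 24421 genes, where all 9 were found. The libraries come from a study of ERK signalling in a mouse model of Noonan syndrome, a developmental disorder of the RAS-ERK pathway. Each of the 4 libraries was made from 100 fluorescent cells picked by hand from mouse brain. In 2 libraries, labelled excitatory, the cells are labelled positive for αCaMKII, a calcium-activated kinase that glutamatergic neurons of the forebrain make. In the other 2, labelled inhibitory, they are labelled positive for vGAT, which fills synaptic vesicles with GABA. The labels name αCaMKII-Cre and vGAT-IRES-Cre transgenic colonies, bred to wild-type C57Bl/6J mice, and male mice of 3 to 5 months; they give no disease allele, no treatment, no brain region and no reporter for these libraries. The cells of a library therefore depend on which cells the αCaMKII promoter or the vGAT locus drives Cre in. Whether the libraries of a label stem from separate animals is not stated, so a p-value here measures only how far these libraries spread, which may be a technical matter.

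In the embryonic ventral forebrain, Dlx genes are switched on in progenitors of GABAergic neurons and direct their migration and differentiation. In the medial ganglionic eminence Nkx2-1 specifies progenitors and activates Lhx6, and Sox6 and Satb1 act after Lhx6 in the maturation of somatostatin and parvalbumin interneurons. Cortical interneurons switch Nkx2-1 off as they migrate and keep Lhx6 into adulthood. Several of these genes are also used by other cells, such as Sox6 by oligodendrocyte precursors and Satb1 by T cells and some projection neurons.

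A deposited value is log2 of the normalized reads of a gene, with less than 1 normalized read listed as 0. Every difference is excitatory minus inhibitory on that scale, tested with limma's moderated test across 13619 genes, and adjusted p-values are Benjamini-Hochberg values over all of them with a threshold of 0.05. Depth, estimated from the spacing of the lowest values, was about 62000000 to 74200000 reads per library. A single read was worth 1.29 and 1.23 normalized reads for excitatory and 0.72 and 0.874 for inhibitory libraries, so in the inhibitory libraries a gene with 1 read is listed at 0. Over all tested genes the difference had a median of 0.52 in the deposited values and -0.01 after median-of-ratios scaling, and for genes described here by their difference both are given where the call changed. The genes that check the labels went only partly with them. Camk2a, the gene of αCaMKII, was higher in the excitatory libraries (0.87, limma adjusted p = 3.18e-04). Slc32a1, which encodes vGAT, had a listed 0 in every library, as did 9583 of all 24421 genes. Slc17a7, a pyramidal neuron marker, had excitatory values of 12.19 and 12.06 and inhibitory values of 11.99 and 11.67. It did not pass in the deposited values (0.30, limma adjusted p = 0.182) or after scaling, where its direction turned (-0.24, 0.321). Gad1, of a GABA-synthesizing enzyme, had excitatory values of 10.91 and 11.17 and inhibitory values of 11.45 and 11.59; it did not pass in the deposited values (-0.48, limma adjusted p = 0.0649) and was lower in the excitatory libraries after scaling (-1.02, 2.02-fold, 0.00798). Gad2 had 9.73 and 10.39 against 10.14 and 10.13 and did not pass in either (-0.08 and, after scaling, -0.61, adjusted p = 0.824 and 0.14). Excitatory and inhibitory below therefore name libraries by their labels. Glial markers were present in every library: 8 of 8 astrocyte markers held 2.58% and 2.63% of the normalized reads of the excitatory and 2.37% and 2.19% of the inhibitory libraries, and 6 of 6 oligodendrocyte markers held 3.71% and 3.76% against 5.13% and 5.04%. For 7 of 7 microglia markers the shares were 0.0303% and 0.0354% against 0.107% and 0.0854%. Of 4 endothelial markers at most 1 was above 0 in a library, and Cldn5 and Tek were listed at 0 in all 4. The part of these cells in the differences below was not tested.

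The interneuron transcription factors did not move together. Lhx6, Satb1 and Nkx2-1 were higher in the libraries labelled excitatory, Dlx2 was higher in those labelled inhibitory, Sox6 and Dlx1 did not pass the test, and Dlx5, Dlx6 and Sp9 had too few reads to test. Of the 9 genes 6 could be tested and 4 of these passed, 3 of them with higher excitatory values and 1 with higher inhibitory values. Among all 13619 tested genes 71.8% passed, 45.0% higher in the excitatory and 26.8% higher in the inhibitory libraries, so the share of the 6 that passed is near that of any gene. After scaling 4 of the 6 passed as well, 2 in each direction, against 65.8% of all tested genes (32.3% and 33.5%). Values of the libraries of a label did not overlap those of the other for Lhx6, Satb1, Nkx2-1 and Dlx2, which is 4 of 6 genes, and did not overlap for 86.4% of all tested genes. In these pooled cells, fewer cells that express a gene and less RNA of it per cell cannot be told apart.

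**Figure D1:**
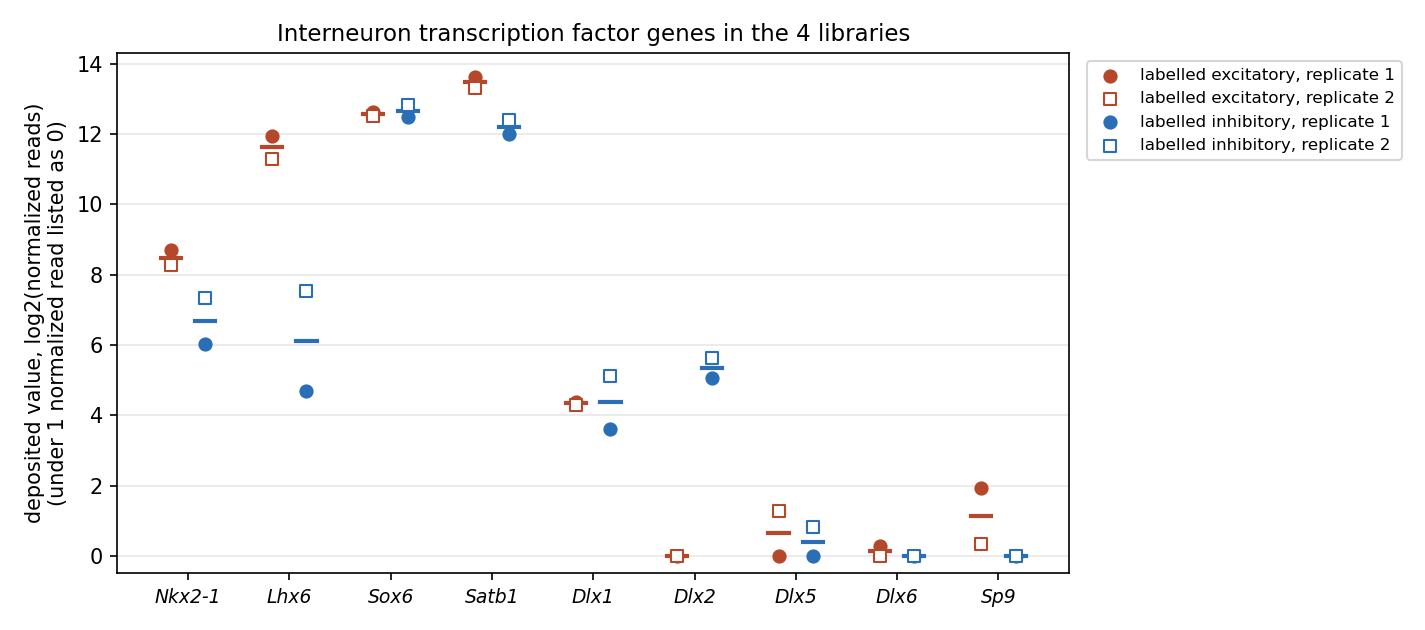
Deposited values (vertical axis, log2 of normalized reads) of the 9 genes in each library, with replicate 1 as filled circles, replicate 2 as open squares and the mean of a label as a bar. Lhx6, Nkx2-1 and Satb1 stand higher in the excitatory libraries, Dlx2 only above 0 in the inhibitory ones, and Dlx5, Dlx6 and Sp9 lie below 2 in all 4 libraries.

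Nkx2-1, the homeodomain factor that specifies the medial ganglionic eminence, had excitatory values of 8.69 and 8.28 and inhibitory values of 6.02 and 7.33. These correspond to about 320 and 252 excitatory reads and about 90 and 184 inhibitory reads. Both excitatory values lay above both inhibitory ones, which differed from each other by 1.31. The difference was 1.81 (SE 0.53, 95% interval 0.42 to 3.20, 3.51-fold, limma adjusted p = 0.0311). It did not pass after scaling (1.27, adjusted p = 0.0848) or without any 1 of the libraries (0.28 and 0.214 without excitatory replicate 1 or 2, 0.127 and 0.0516 without inhibitory replicate 1 or 2). The gene lies on the minus strand of chromosome 12 of GRCm38 (mm10), from 56531958 to 56536908.

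Lhx6, a LIM-homeodomain factor activated by Nkx2-1 and kept on in adult somatostatin and parvalbumin interneurons, had the largest difference in favour of the excitatory libraries among the 6 tested genes of the list. Its values were 11.95 and 11.29 in the excitatory libraries, about 3047 and 2030 reads, and 4.69 and 7.53 in the inhibitory libraries, about 36 and 212 reads. The excitatory libraries differed by 0.66, a gap that 20.6% of all tested genes reached between them, and the inhibitory libraries by 2.84, which 1.64% reached. With inhibitory replicate 1 left out the difference was 4.08 (limma adjusted p = 0.0399) and with inhibitory replicate 2 left out it was 6.92 (0.0245), against 5.50 with all libraries (SE 0.99, 95% interval 2.88 to 8.12, adjusted p = 0.00658). Without excitatory replicate 1 or 2 it did not pass (adjusted p = 0.172 and 0.148). Lhx6 spans 36081953 to 36105408 on the minus strand of chromosome 2.

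Genes on either side of Lhx6 went the other way. Morn5, 2.24 kb beyond the end of Lhx6, had no listed reads in either excitatory library and values of 7.80 and 6.79 in the inhibitory ones. Rbm18, an RNA-binding protein gene 10.7 kb beyond the start of Lhx6, had excitatory values of 7.84 and 6.97 and inhibitory values of 13.34 and 13.69 (-6.11, SE 0.35, limma adjusted p = 1.93e-04). RefSeq gives Lhx6 several starts, and the window around 1 of them (250 bases before to 50 after the start, chr2:36104011-36104310, minus strand, build GRCm38.p6) is shown because it is the only 1 of 3 Lhx6 windows with TAATT, the core of many homeodomain sites. The capitals mark TAATT.
Lhx6: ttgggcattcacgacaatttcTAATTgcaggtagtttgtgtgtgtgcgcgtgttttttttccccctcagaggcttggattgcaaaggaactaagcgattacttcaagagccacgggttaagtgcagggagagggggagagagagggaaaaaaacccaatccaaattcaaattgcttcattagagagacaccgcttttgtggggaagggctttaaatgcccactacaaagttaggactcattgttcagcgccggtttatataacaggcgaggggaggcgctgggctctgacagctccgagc

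Satb1, a chromatin organizer needed by maturing somatostatin interneurons, had 13.62 and 13.32 in the excitatory libraries and 11.99 and 12.39 in the inhibitory libraries. It was the gene of the list with the most reads in the excitatory libraries, about 9736 and 8307, against about 5648 and 6135 in the inhibitory libraries. The groups did not overlap, and the difference was 1.28 (SE 0.20, 95% interval 0.75 to 1.81, 2.43-fold, limma adjusted p = 0.00398). After scaling it was 0.74 (1.67-fold, adjusted p = 0.0186). It did not pass without any 1 of the libraries (adjusted p = 0.103 and 0.0782 without excitatory replicate 1 or 2, 0.0742 and 0.0514 without inhibitory replicate 1 or 2). Of 6 T cell markers 2 to 4 were above 0 in a library, and Cd3g and Cd2 were listed at 0 in all 4. The list's summed level (log2 of the summed normalized reads) was 5.13 and 4.55 in excitatory and 9.48 and 9.33 in inhibitory libraries. Lck had 4.96 and 4.21 in excitatory and 9.04 and 8.92 in inhibitory libraries. Cd247 had 0 and 0.35 against 7.54 and 7.30, and Cd3d 1.96 and 1.89 against 1.84 and 0.79. Of 6 pyramidal neuron markers, 6 and 5 were above 0 in the excitatory libraries and 6 in each inhibitory library; their summed excitatory level was 16.70 and 16.63 and their summed inhibitory level 15.77 and 15.80. The part of these cells in the difference of Satb1 was not tested. Satb1 spans 51736187 to 51833290 on the minus strand of chromosome 17.

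Sox6, a SoxD factor downstream of Lhx6, had nearly the same value everywhere: 12.61 and 12.51 in the excitatory libraries, 12.47 and 12.83 in the inhibitory libraries. The groups overlapped, and both excitatory values lay between the inhibitory ones. The difference of -0.09 (95% interval -0.54 to 0.35) did not pass in the deposited values (limma adjusted p = 0.646), but after scaling Sox6 was lower in the excitatory libraries (-0.63, SE 0.14, 1.55-fold, adjusted p = 0.0184). Oligodendrocyte precursors also make Sox6. Of 5 markers of these cells 3 were above 0 in each excitatory library, and 3 and 4 in the inhibitory libraries. Together they made up 0.00374% and 0.00349% of the normalized reads of the excitatory libraries and 0.00767% and 0.00942% of the inhibitory ones. Pdgfra, the receptor gene that defines these cells, had a listed 0 in each excitatory library and 10.84 and 11.51 in the inhibitory ones. Olig2 had 1.98 and 1.90 in the excitatory and 4.92 and 4.13 in the inhibitory libraries. Olig1 had 11.54 and 11.40 against 11.13 and 11.10 and did not pass (limma adjusted p = 0.0978). Sox10 had 3.94 and 1.32 in the excitatory libraries, about 12 and 2 reads, and a listed 0 in each inhibitory one. It did not pass either (limma adjusted p = 0.0572). Of 4 tested markers 0 passed with higher excitatory values and 2 with higher inhibitory values, also after scaling. Among all tested genes the shares were 45.0% and 26.8%, and after scaling 32.3% and 33.5%. The part of oligodendrocyte precursors in the level of Sox6 was not tested. Sox6 spans 115470872 to 116038796 on the minus strand of chromosome 7.

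The Dlx genes were near the bottom of the range or listed at 0, and Dlx1 and Dlx2, which lie 9.43 kb apart on chromosome 2 and face each other with their ends, differed in pattern. In both excitatory libraries Dlx2 stood at a listed 0, while the inhibitory ones held it at 5.05 and 5.61, about 46 and 56 reads. Its higher value in the inhibitory libraries passed limma's test (adjusted p = 3.90e-04), where the spread of the excitatory values is 0 because both are listed at 0. When 1 library was left out, the difference stayed between -5.61 and -5.05. Without inhibitory replicate 1 or 2 the only spread left was that of the excitatory values. The SE was then 0.0158 and 0.0145, against 0.398 with all libraries, so passing there does not show a steady difference. Dlx1 had 4.37 and 4.30 in the excitatory libraries and 3.61 and 5.13 in the inhibitory libraries, about 16 and 16 reads against about 17 and 40. Its groups overlapped, and the difference of -0.03 (95% interval -1.63 to 1.57, adjusted p = 0.968) spans about 3-fold either way. Metap1d, on the other side of Dlx1 at 2.92 kb, had excitatory values of 9.51 and 8.98 and inhibitory values of 3.98 and 3.39 (5.56, SE 0.39, adjusted p = 3.35e-04).

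Dlx1 spans 71528113 to 71533981 on the plus strand and Dlx2 71543408 to 71546754 on the minus strand of GRCm38. The RefSeq windows at their starts are shown because these neighbours of 1 locus had unlike values; neither holds TAATT, so no base is in capitals. Dlx1 is at chr2:71529195-71529494 and Dlx2 at chr2:71546705-71547004.
Dlx1: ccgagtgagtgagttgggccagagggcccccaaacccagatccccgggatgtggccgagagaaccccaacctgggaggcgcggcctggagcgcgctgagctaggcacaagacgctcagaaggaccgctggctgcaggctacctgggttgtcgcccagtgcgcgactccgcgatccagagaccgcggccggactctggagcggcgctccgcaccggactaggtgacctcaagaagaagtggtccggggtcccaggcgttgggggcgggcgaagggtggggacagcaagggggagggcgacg
Dlx2: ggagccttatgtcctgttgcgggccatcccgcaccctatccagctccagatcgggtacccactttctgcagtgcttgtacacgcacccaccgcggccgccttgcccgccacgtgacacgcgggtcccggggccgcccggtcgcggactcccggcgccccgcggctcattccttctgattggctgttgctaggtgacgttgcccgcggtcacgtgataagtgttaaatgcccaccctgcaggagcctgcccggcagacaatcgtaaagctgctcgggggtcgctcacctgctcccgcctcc

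The table of windows matched 7 of the 9 genes with 18 windows, of which 5 (27.8%) hold TAATT on either strand, against 27.0% of 32851 windows of all genes. A match is a description of the letters only.

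Dlx5, Dlx6 and Sp9, a zinc finger factor that acts beside the Dlx genes, had at most 3 reads in any library. Dlx5 had 1.27 in excitatory replicate 2 and 0.81 in inhibitory replicate 2, about 2 reads each, and was listed at 0 in the other two libraries. Dlx6 had 0.29, about 1 read, in excitatory replicate 1 and was listed at 0 elsewhere. Sp9 had 1.93 and 0.33 in the excitatory libraries, about 3 reads and 1 read, and a listed 0 in each inhibitory one. No difference was detectable for these 3 genes at this depth. The antisense genes of the Dlx loci were as low: Dlx6os1 was listed at 0 in all 4 libraries, and Dlx1as had excitatory values of 1.38 and 1.30 and inhibitory values of 1.10 and 0. Dlx1as shares 335 bases of exon with Dlx1, and reads of overlapping genes cannot be told apart without strand, which neither library kit is described as marking.

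Per length, the order of the genes differed between the labels. In the excitatory libraries Lhx6 led with 821 and 520 normalized reads per kb of exon, beside Satb1 with 662 and 537. These neighbours changed places between the replicates. Sox6 followed with 423 and 392, then Nkx2-1 with 146 and 109, then Dlx1 with 3.84 and 3.65. In the inhibitory libraries Sox6 led with 384 and 491 normalized reads per kb, above Satb1 with 214 and 282. Nkx2-1 had 22.8 and 56.5, Lhx6 5.38 and 38.5, Dlx2 11.6 and 17.1 and Dlx1 2.26 and 6.48. The ranges of Nkx2-1 and Lhx6, of Lhx6 and Dlx2 and of Lhx6 and Dlx1 overlapped there.

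**Figure D2:**
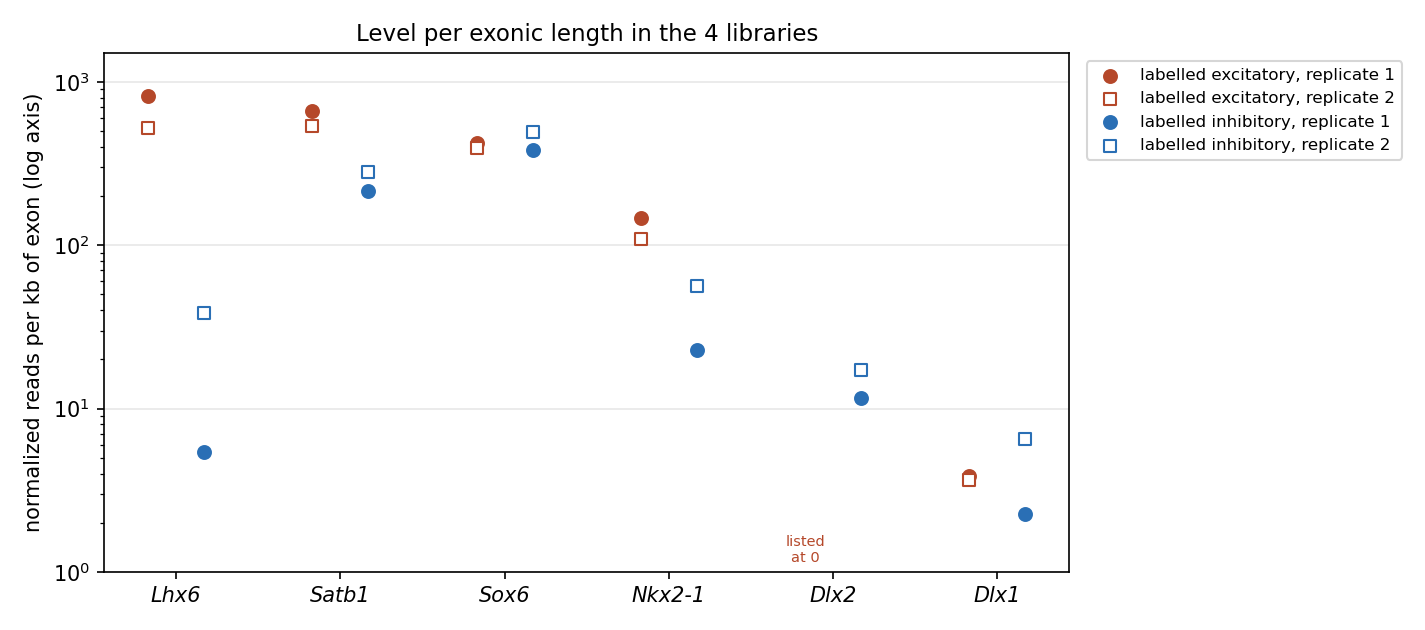
Normalized reads per kb of exon (log axis) of the 6 tested genes in each library, with replicate 1 filled and replicate 2 open. Lhx6 stands first in excitatory replicate 1 at 821 and near Dlx2 in the inhibitory libraries, where Sox6 stands first at 384 and 491.

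Differences between libraries of a label also ran through the list. All 7 genes above 0 in either inhibitory library were higher in inhibitory replicate 2, as were 48.9% of all tested genes. Of the 8 genes above 0 in either excitatory library 7 were higher in excitatory replicate 1, as were 52.7% of all tested genes. The median gap over all tested genes was 0.29 between the inhibitory libraries, and those of Lhx6 (2.84), Dlx1 (1.52) and Nkx2-1 (1.31) were larger. The counts have no test, since the genes share their libraries.

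**Figure D3:**
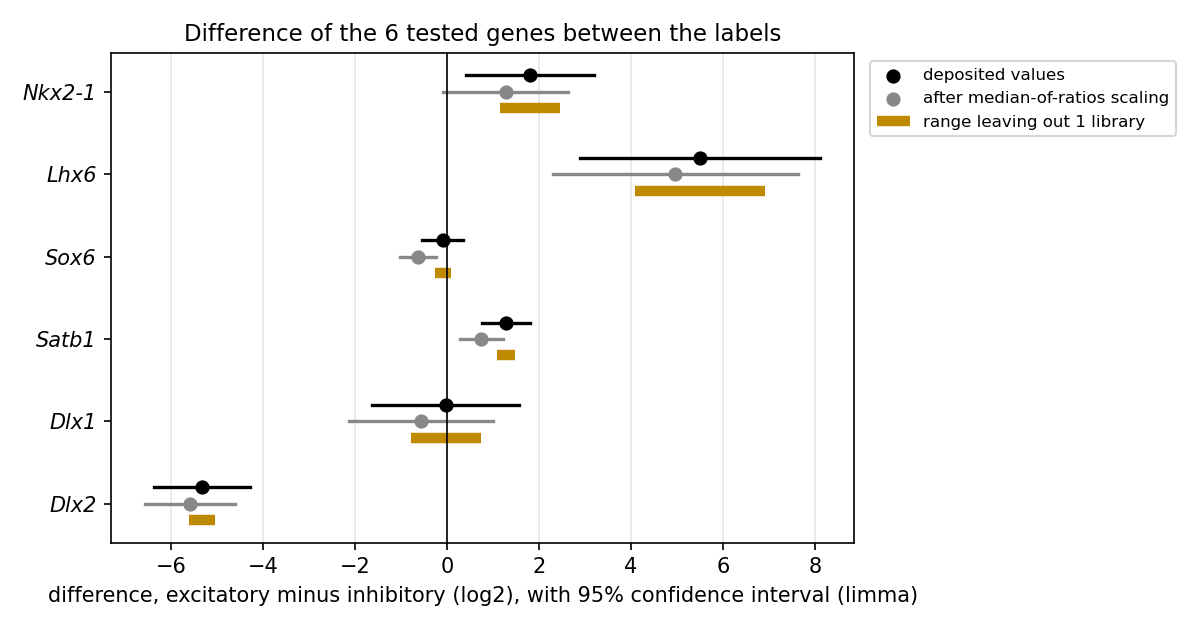
Difference of each tested gene, excitatory minus inhibitory in log2 units, with its 95% confidence interval from limma in the deposited values (black) and after median-of-ratios scaling (grey), and the range of the difference when 1 library is left out (ochre). Lhx6 ranges from 4.08 to 6.92 and Dlx2 from -5.61 to -5.05 when a library is left out; for Dlx2, listed at 0 in the excitatory libraries, the fitted difference depends on how 0 is set.

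Other transcription factors of interneuron development were split as well. Of 20 such genes 3 were listed at 0 in all 4 libraries (Gsx1, Gsx2 and Lhx8), as were 9583 of all 24421 genes. Of the 20, 1 was too low to test and 16 were tested. Of these 7 passed with higher values in the excitatory libraries and 5 with higher values in the inhibitory ones, and 4 did not pass, with a median difference of 0.10 against 0.52 over all tested genes. After scaling the counts were 3 and 8, with a median of -0.43 against -0.01. Among all tested genes 71.8% passed, 45.0% higher in the excitatory and 26.8% higher in the inhibitory libraries. After scaling 65.8% passed, 32.3% and 33.5%. Nkx6-2, an NK homeodomain factor of progenitors and oligodendrocytes, had excitatory values of 10.90 and 10.44 and a listed 0 in each inhibitory library. Etv1, an ETS factor, differed by 2.08 (SE 0.12, limma adjusted p = 1.79e-04), with the excitatory libraries higher. Isl1, a LIM-homeodomain factor of striatal and cholinergic neurons, had excitatory values of 0.43 and 1.90 and inhibitory values of 9.35 and 9.30. Npas1, a bHLH-PAS factor of interneurons, had excitatory values of 4.54 and 3.76 and inhibitory values of 9.54 and 9.08. Each of these 4 passed limma's test in the deposited values and after scaling. When 1 library was left out, the difference ranged from 10.44 to 10.9 for Nkx6-2 and from 2.01 to 2.15 for Etv1. It ranged from -8.89 to -7.42 for Isl1 and from -5.55 to -4.76 for Npas1. For Nkx6-2 without an excitatory library, the only spread left was that of 2 inhibitory values listed at 0. Its SE was then 0.0598 and 0.066, against 0.355 with all libraries, so those fits do not show a steady difference.

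Zfhx3 (-2.76), a zinc finger homeobox gene, Bcl11b (-0.94), a factor of striatal and deep-layer cortical neurons, and Meis2 (0.91), a homeodomain factor of the lateral eminence, passed as well (limma adjusted p = 0.00296, 0.00523 and 0.00607). Zfhx3 lost its call without excitatory replicate 1 or 2 (0.083 and 0.0949), and Bcl11b without inhibitory replicate 1 or 2 (0.065 and 0.07). Meis2 did not pass after scaling (0.37, adjusted p = 0.068) or without any 1 library (0.0644 to 0.117).

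**Figure D4:**
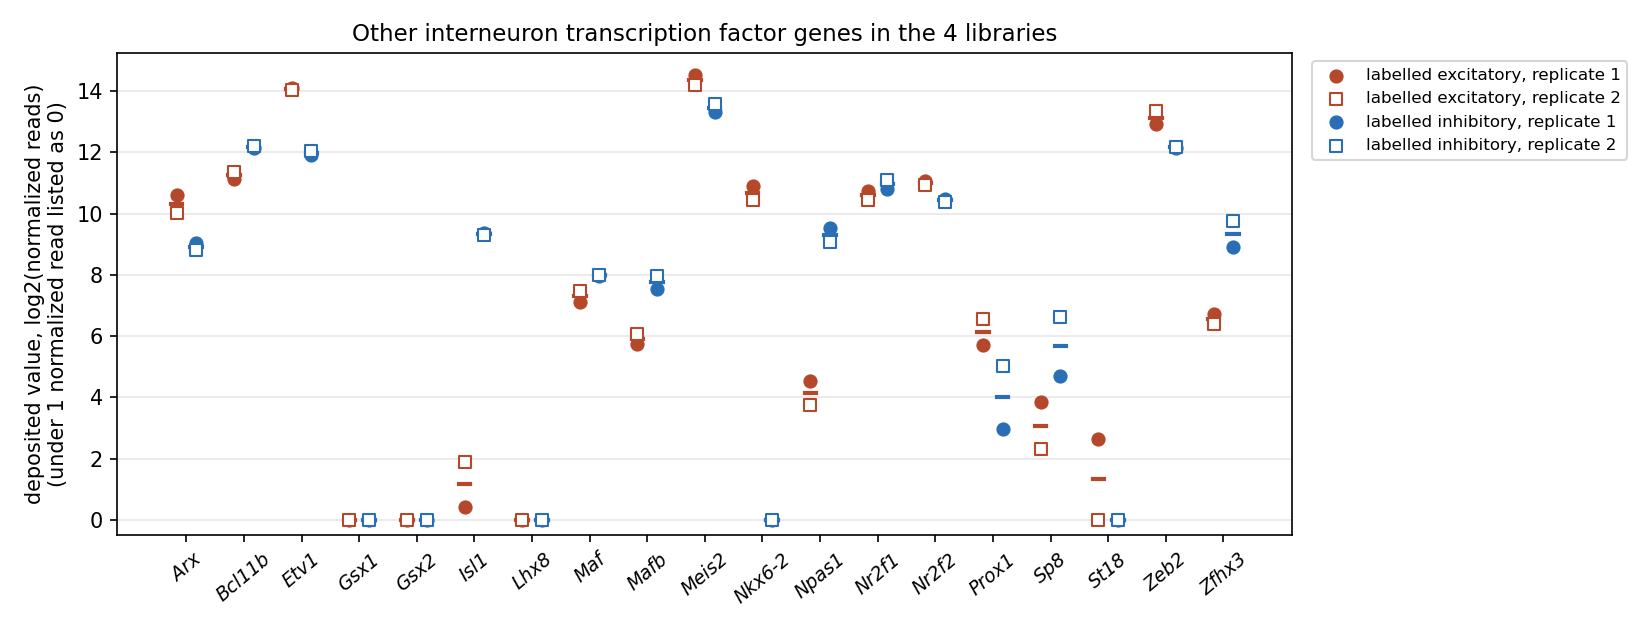
Deposited values (vertical axis, log2 of normalized reads) of 19 of the 20 other interneuron transcription factor genes in each library, with replicate 1 filled, replicate 2 open and the mean of a label as a bar. Nkx6-2 is high only in the excitatory libraries (10.90 and 10.44), and Isl1 and Npas1 stand above 9 in the inhibitory libraries alone.

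Of 8 close relatives of the members 4 were tested, 3 of these passed with lower values in the excitatory libraries and 0 with higher ones. After scaling the counts were 4 and 0. Among all tested genes 26.8% passed with lower excitatory values and 45.0% with higher ones, and after scaling 33.5% and 32.3%. Dlx4, Lhx8 and Nkx2-4 were listed at 0 in all 4 libraries, and Dlx3 had excitatory values of 1.33 and 0 and inhibitory values of 0.53 and 0. Of the SoxD relatives of Sox6, Sox13 was lower in the excitatory libraries (-2.85, adjusted p = 0.00642), and Sox5 had 11.15 and 11.76 against 12.42 and 12.07 (-0.79, adjusted p = 0.04995; 0.0589 without a filter and 0.0913 without the variance trend). Sp8, the partner of Sp9, had excitatory values of 3.84 and 2.31 and inhibitory values of 4.69 and 6.63, which did not pass (-2.58, adjusted p = 0.0505) and passed after scaling (-3.12, 0.0326). Sox13 lost its call without inhibitory replicate 1 or 2 (0.123 and 0.107) and Sox5 without any 1 library (0.093 to 0.33).

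Genes of LIM cofactors, from the Ldb and Lmo families, were measured too. Of 6 tested 3 passed with higher values in the excitatory libraries, 1 with higher values in the inhibitory ones and 2 did not pass. The median difference was 0.67 against 0.52 over all tested genes, and after scaling the counts were 1 and 2. The shares of all tested genes that passed in these directions were 45.0% and 26.8%, and after scaling 32.3% and 33.5%. Lmo1 had excitatory values of 13.28 and 13.39 and inhibitory values of 11.97 and 11.78 (1.46, SE 0.14, limma adjusted p = 7.65e-04). Lmo2, which is also a blood and endothelial gene, had excitatory values of 0 and 2.31 and inhibitory values of 9.96 and 10.56 (adjusted p = 7.52e-04), a call lost without inhibitory replicate 1 or 2 (0.0615 and 0.0658). Ldb1, the adaptor that joins LIM factors, was 1.02 higher and Lmo4 1.19 higher in the excitatory libraries (0.0142 and 0.0229); neither passed after scaling (0.48 and 0.65, adjusted p = 0.148 and 0.11). Ldb1 lost its call without excitatory replicate 1 or 2 (0.125 and 0.122), and Lmo4 without excitatory replicate 1 or 2 (0.248 and 0.186) or inhibitory replicate 1 (0.106).

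Genes that act after these factors in interneurons were compared last. Of 16 such genes 3 were listed at 0 in all 4 libraries (Slc32a1, the receptor gene Erbb4 and Nxph1), as were 9583 of all 24421 genes. Of 13 tested 7 passed with higher values in the excitatory libraries, 3 with higher values in the inhibitory ones and 3 did not pass. Their median difference was 0.61 against 0.52 over all tested genes, and after scaling the counts were 4 and 4. The shares of all tested genes that passed in these directions were 45.0% and 26.8%, and after scaling 32.3% and 33.5%. Nrp2, a semaphorin receptor of migrating interneurons that Nkx2-1 represses, had excitatory values of 14.64 and 14.91 and inhibitory values of 9.38 and 9.86 (5.16, SE 0.22, limma adjusted p = 1.02e-04). Ackr3, a chemokine receptor gene of migrating interneurons, had a listed 0 in each excitatory library and inhibitory values of 8.55 and 8.77. The potassium channel genes Kcnc1 and Kcnc2, both used by fast-spiking interneurons, went opposite ways: Kcnc1 had excitatory values of 10.11 and 10.05 and inhibitory values of 7.49 and 7.54, and Kcnc2 had excitatory values of 4.54 and 4.69 and inhibitory values of 8.93 and 9.26. Both passed limma's test (adjusted p = 6.23e-04 for Kcnc1 and 3.05e-04 for Kcnc2).

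The genes whose 4 values were closest to those of each member that passed, by Euclidean distance, were found among all genes other than predicted genes, RIKEN clones and pseudogenes. For Lhx6 they were Ncoa6, a nuclear receptor coactivator gene, at a distance of 1.17 log2 units and Taok2, a kinase gene, at 1.24. Ncoa6 had excitatory values of 11.12 and 11.49 and inhibitory values of 5.28 and 6.97. For Dlx2 they were Ddx51 (0.0672) and Klhdc7a (0.0691), both listed at 0 in the excitatory libraries with 5.11 and 5.64, and 4.99 and 5.59, in the inhibitory ones. For Satb1 they were Smim7 (0.166) and Rnasek (0.239), and for Nkx2-1 they were the calcium channel gene Cacna1h (0.476) and Elovl4 (0.565). Over 4 libraries of 2 labels such likeness describes these libraries only.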

How the data were processed

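The tools named by the submitters' processing notes are TopHat and edgeR, and the build is mm10; versions, roles and the counting tool: not given in the sources used here. For each gene the authors deposited 1 log2 value per gene and library, normalized by a factor of each library's own. Mbp, an oligodendrocyte gene, had a deposited value of 21.331 in all 4 libraries, the only gene above 0 with the same value in all 4. Its estimated reads were 2038621 and 2142954 in the excitatory and 3662838 and 3017589 in the inhibitory libraries. Its deposited difference was therefore 0, against -0.54 after median-of-ratios scaling. Whether the factors, and with them the median difference of 0.52 and the deposited calls, were tied to Mbp was not tested. The scale was settled from the values: 2 to the power of the value falls into even bands that extrapolate to within 0.0673 reads of 0, so no 1 was added before the logarithm, and the lowest band lies at 1 read in the excitatory and 2 reads in the inhibitory libraries. Estimated reads are linear values divided by the band spacing; no interval for counting error was computed from them.

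In R 4.3.3, limma 3.58.1 (trend, 2.56 prior and 2 residual degrees of freedom) fitted the difference of the labels to 13619 genes that reached 1 in 2 or more libraries; it was tested on simulated data first. The members and lists were chosen with earlier results of these data known. Named genes were all members, the paralogs and antisense genes, up to 8 other factors and up to 4 of each further list past the threshold by smallest p, the 2 closest patterns per member, label checks and nearest listed neighbours of detected members; 1 of these other factors and 1 paralog are counted but not reported here; of the neighbours Morn5, Rbm18 and Metap1d are described, and Pdgfra and the markers at 0 were chosen by their values. Positions and exonic lengths are from GENCODE release M21 on the same build, which held 23376 (95.7%) of the symbols. Alternatives were scaling, filters, the pseudocount, the variance trend, the replicate block and leaving out each library. Scaled values in the text keep the deposited transform, a setting chosen after seeing the data; the planned form adds 1 before the logarithm. Across genes, deviations of libraries with the same replicate number were not correlated (-0.00193), which does not settle whether those libraries were prepared together.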

Additional observations from a re-analysis of the deposited data

How the results depend on the processing

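Of the 9 genes, 4 passed under every setting that kept all 4 libraries, though not the same 4. Under median-of-ratios scaling with 1 added, Sox6 passed (-0.63, adjusted p = 0.0179) and Nkx2-1 did not (1.27, 0.0864); upper-quartile scaling gave the same pattern (0.0278 and 0.0943). Without 1 library, 1 to 2 of the 9 genes passed (Dlx2 alone without an excitatory library, Dlx2 and Lhx6 without an inhibitory one), 6 to 8 of the other factors against 12, and 6103 to 6551 of all tested genes against 9777; the library left alone under its label is then assumed to vary like those of the other label. Both scalings turned the split of all passing genes, from 62.6% higher in the excitatory libraries to 49.2% and 49.7%. Turned directions were those of Dlx1 without excitatory replicate 2 (0.006) or inhibitory replicate 2 (its range over omissions was -0.79 to 0.73), Sox6 without inhibitory replicate 2 (-0.27 to 0.0855), Gad2 without excitatory replicate 1 (-0.40 to 0.25), and Slc17a7, a label check, under both scalings (-0.24 and -0.22) and under median-of-ratios scaling with the deposited transform (-0.24). None of these passed, and the cause was not tested.

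With the replicate number as a block, 9782 genes passed and Lhx6 had an adjusted p of 7.42e-04; among the members the replicate block changed no call, and Sp8 passed with it (0.0345). With 2 libraries per label, and at most 56 reads for any Dlx gene and 3 for Sp9, the depth limits what can be seen for Dlx1, Dlx5, Dlx6 and Sp9.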
